A study of Mus musculus with 4 samples.

Results

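The circadian clock genes followed here through the neurons and glia of the mouse hypothalamus were Clock, Arntl, Per1, Per2, Per3, Cry1, Cry2, Nr1d1, Nr1d2 and Dbp. These 10 genes were taken by symbol from the 32285 gene identifiers of the control-labelled matrices, and their levels were read in each glial class and in neurons with and without transcripts of Vip, Vipr2 or Prok2. The study profiled nuclear RNA from the frozen whole hypothalamus of mice about 18 months old, which had been transplanted with hypothalamic stem cells made from human pluripotent stem cells or had served as controls. The labels name no strain, sex, number of animals or time of day of collection, and some sample names join the codes of more than 1 animal. The matrices labelled control replicate 1 and transplanted replicate 1 shared 3997 of 4008 barcodes, and those labelled replicate 2 shared 2144 of 2150, so the 4 matrices hold 2 distinct libraries. The libraries are called A (replicate 1) and B (replicate 2), each was counted once, in the control-labelled deposit, and no comparison between the labels was made. The members' totals under the 2 labels of 1 library differed by -5.71% to 7.41%.

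The clock is a feedback loop of transcription. CLOCK and ARNTL (also called BMAL1) bind E-box sequences as a pair and turn on the Per and Cry genes, whose proteins return to the nucleus and hold the pair back, while NR1D1 and NR1D2 (REV-ERB alpha and beta) repress Arntl through ROR elements in opposition to the ROR activators. DBP is an output factor that binds D-box elements. In mammals the master pacemaker is the suprachiasmatic nucleus of the hypothalamus, where VIP and its receptor VIPR2 couple neurons to each other and PROK2 is a secreted output, and most other cells, astrocytes among them, hold clocks of their own.

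These elements can be read in the promoters of several members. RefSeq promoters of build GRCm38.p6 were listed for 9 of the 10 genes, with 13 starts, and each window ran from 250 bases before the start to 50 bases after it. The motifs searched on both strands were the E-box CACGTG (in 7.15% of all 32851 promoters), the E'-box CACGTT (4.68%), the D-box TTATGTAA or TTACGTAA (1.06%) and the ROR element TAGGTCA or TAGGTTA (4.0%). The stretches below are from the minus strand, end 9 bases after the start base and carry the matches in capitals. They are shown because the genes of 3 of them differed most plainly between cell classes and that of the fourth, Cry1, differed among neurons. Per3 holds 2 D-boxes (chr4:151044656-151044915), Cry1 holds an E'-box and an E-box (chr10:85185045-85185304), and Nr1d1 (chr11:98775368-98775627) and Cry2 (chr2:92434060-92434319) hold an E'-box each, which reads AACGTG on this strand.
Per3: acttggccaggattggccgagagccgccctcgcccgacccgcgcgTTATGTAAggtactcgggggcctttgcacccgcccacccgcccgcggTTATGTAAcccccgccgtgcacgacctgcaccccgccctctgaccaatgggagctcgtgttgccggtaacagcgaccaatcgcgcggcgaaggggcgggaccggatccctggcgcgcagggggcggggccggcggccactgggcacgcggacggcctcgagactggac
Cry1: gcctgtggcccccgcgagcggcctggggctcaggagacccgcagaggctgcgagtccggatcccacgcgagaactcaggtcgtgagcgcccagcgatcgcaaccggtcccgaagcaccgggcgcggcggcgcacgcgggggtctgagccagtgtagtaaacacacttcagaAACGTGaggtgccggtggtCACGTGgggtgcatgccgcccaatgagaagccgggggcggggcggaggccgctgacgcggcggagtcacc
Nr1d1: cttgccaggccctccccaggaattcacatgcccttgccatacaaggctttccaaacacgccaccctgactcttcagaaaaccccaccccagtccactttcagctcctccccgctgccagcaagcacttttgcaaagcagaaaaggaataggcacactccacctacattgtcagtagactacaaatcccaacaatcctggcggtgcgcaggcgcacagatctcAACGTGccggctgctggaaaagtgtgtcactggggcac
Cry2: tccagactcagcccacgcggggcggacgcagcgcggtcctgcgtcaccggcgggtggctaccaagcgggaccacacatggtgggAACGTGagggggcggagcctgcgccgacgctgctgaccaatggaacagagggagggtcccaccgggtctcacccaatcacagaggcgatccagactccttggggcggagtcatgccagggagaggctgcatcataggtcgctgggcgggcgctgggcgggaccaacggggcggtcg

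The D-boxes of Per3 began 205 and 158 bases before the start. In Cry1 the E'-box began 79 bases and the E-box 60 bases before it, in Nr1d1 the E'-box began 28 bases before it, and in Cry2 it began 166 bases before it. Among the promoters not printed, Per1 held an E-box 166 bases before its first listed start, and the ROR element was found only in Arntl. None of the 13 held the cyclic AMP element TGACGTCA, which 1.79% of all promoters held. A match describes the letters of a window and is not a measured binding site.

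Of 6158 barcodes, 6128 were kept (4003 and 2125), clustered without the clock genes and named from fixed markers. In library A and then library B, the median of 2973 and 1440 neurons was 2258 and 2630.5 unique molecular identifiers (UMIs), and that of 982 and 662 glial nuclei was 739 and 765.5. Paired values below follow the order A, then B. Glia comprised astrocytes (303 and 201 nuclei), oligodendrocytes (374 and 286), oligodendrocyte precursors (134 and 72), tanycytes (116 and 56), which line the third ventricle, and microglia (55 and 47). A cluster of 71 nuclei with oligodendrocyte and neuron markers was left unnamed. The 12 neuron markers summed to 27226 and 16669 CPM in neurons (CPM is a gene's UMIs scaled to a common total per group and library) and to between 665 and 5671 CPM in the glial classes, while the 13 astrocyte markers summed to 27204 and 24671 CPM in astrocytes. The tanycyte cluster of library B also carried red blood cell markers at 2930 CPM (81.1 in library A) and fibroblast markers at 1227 CPM (144 in library A).

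Among the activators, Clock, which encodes a subunit of the DNA-binding pair, did not pass the test between any of the 15 pairs of classes. It stood at 105 and 145 CPM in neurons, 92.3 and 84.0 in astrocytes, 125 and 102 in oligodendrocytes, 98.2 and 132 in precursors, 90.1 and 102 in tanycytes and 131 and 153 in microglia. Classes next to each other in this order overlapped, but both astrocyte values lay below every value of neurons, oligodendrocytes, precursors and microglia. The fitted difference between neurons and astrocytes was 0.45 ± 0.27 SE on the log2 scale (edgeR, adjusted p = 0.159). Fitted differences here and below use normalization factors (TMM) that the CPM do not, so their sizes can differ from CPM ratios. Microglia had the highest mean CPM of Clock but were fitted below neurons (log2 difference -0.51 ± 0.48, edgeR, adjusted p = 0.415). Arntl, which encodes the partner of CLOCK, was measured at 51.0 and 68.7 CPM in neurons and at 60.2 and 56.0 in astrocytes. It was lower in oligodendrocytes, at 28.6 and 13.8 CPM, and in precursors, at 19.6 and 10.2. Neurons and astrocytes overlapped in Arntl and both lay above oligodendrocytes and precursors in both libraries, while tanycytes (45.1 and 0) and microglia (0 and 92.1) rested on at most 5 UMIs a library.

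**Figure D1:**
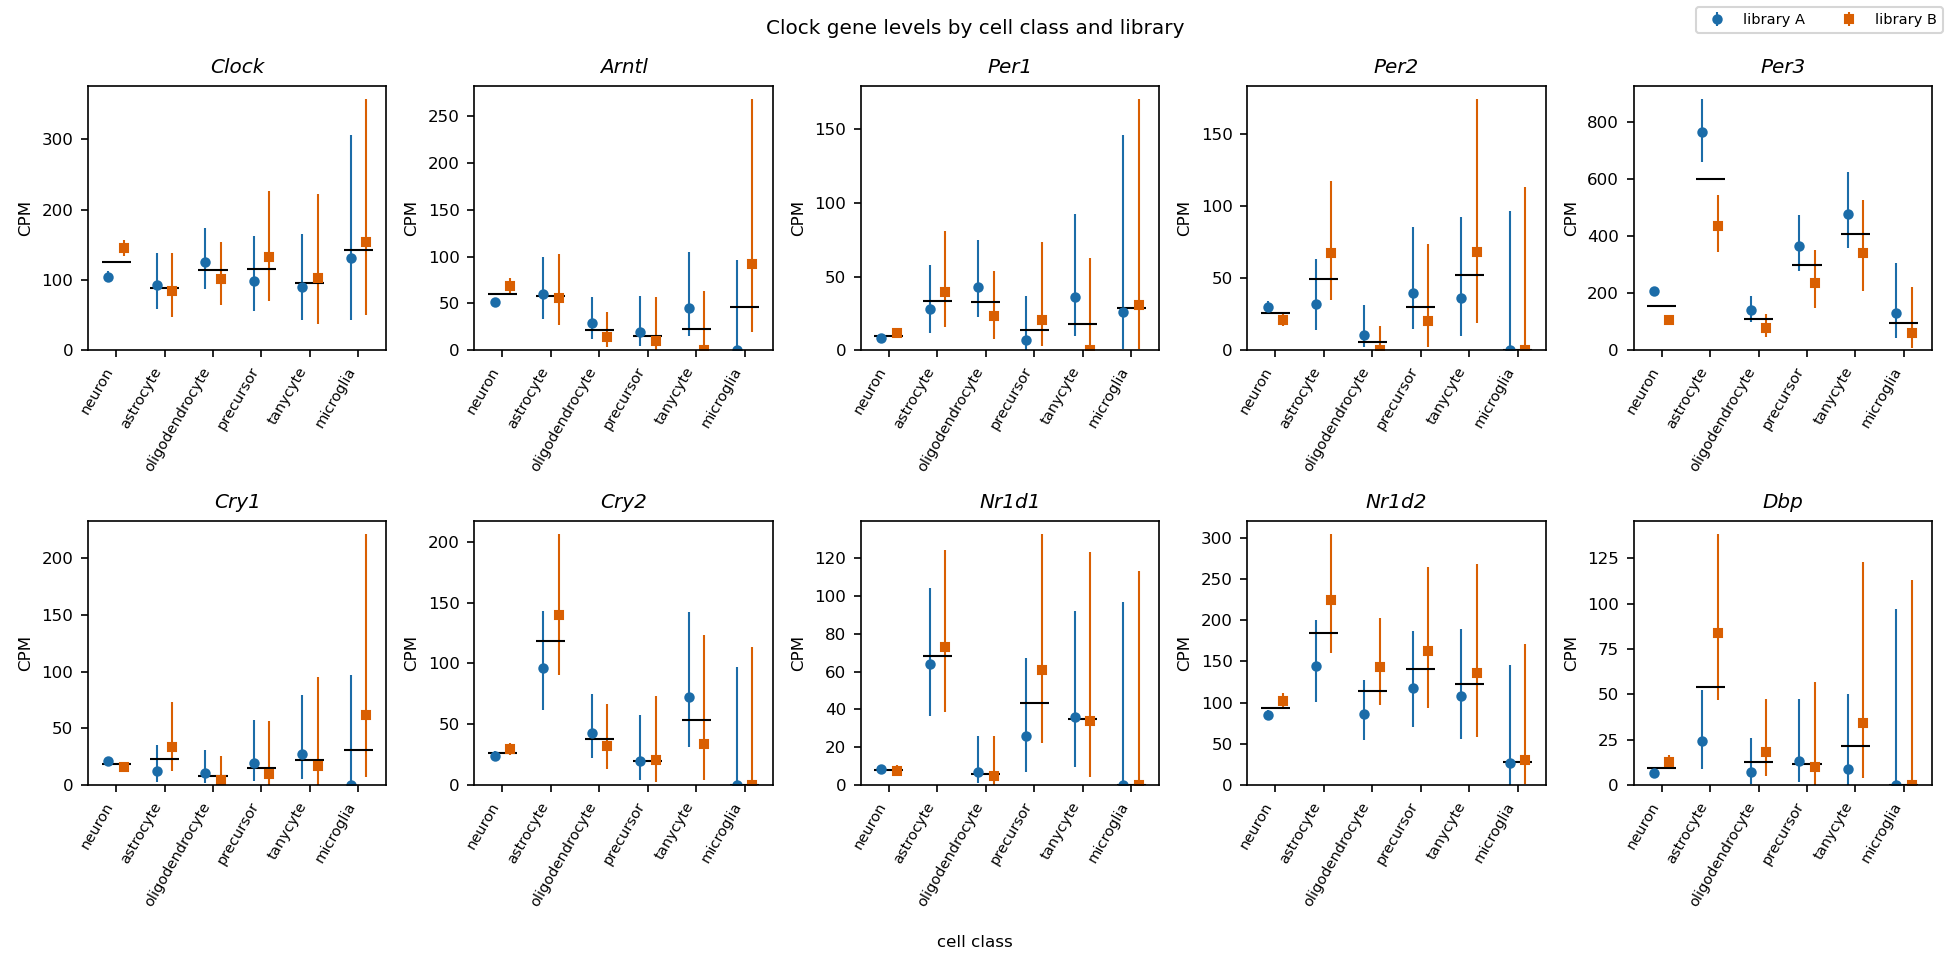
Levels of the 10 clock genes by cell class in libraries A and B, in CPM, with exact 95% Poisson intervals for counting error and a black line at the mean of the libraries. Each gene has its own axis from 0. Per3 reached 767 and 437 CPM in astrocytes, Nr1d1 and Cry2 were also highest there, and the intervals of tanycytes and microglia are wide.

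The Period genes encode the repressors that pair with the cryptochromes. Per3 was measured at 767 and 437 CPM in astrocytes, 478 and 341 in tanycytes, 367 and 234 in precursors, 207 and 105 in neurons, 140 and 78.5 in oligodendrocytes and 131 and 61.4 in microglia. Library A was the higher one in every class, and astrocytes led in both libraries. In this order astrocytes lay above tanycytes (log2 difference 0.89 ± 0.23 SE, adjusted p = 0.000887) and precursors above neurons (0.95 ± 0.22, adjusted p = 0.000149) by edgeR's quasi-likelihood test, and the other 3 neighbours did not pass it. For these pairs of classes 19.4% and 31.2% of 6241 genes differed. The fitted size of astrocytes over tanycytes exceeded the ratio of their CPM in either library. Across libraries these classes overlapped, at 437 CPM in astrocytes of library B and 478 in tanycytes of library A.

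Per2 was measured at 30.2 and 20.7 CPM in neurons, 32.1 and 67.2 in astrocytes, 39.3 and 20.4 in precursors and 36.0 and 68.2 in tanycytes. Oligodendrocytes held 10.7 and 0 CPM, below neurons without overlap (neurons higher by 2.05 ± 0.74 on the log2 scale, adjusted p = 0.0115, where 54.9% of genes differed), and no Per2 UMI was found in microglia. Per1, a fast-responding member of the family, was sparse in neurons, at 8.11 and 11.3 CPM, and stood at 28.1 and 39.2 CPM in astrocytes and 42.9 and 23.1 in oligodendrocytes. Every astrocyte and oligodendrocyte value of Per1 lay above both neuronal values. Per1 fell below the low-count filter of the fit over classes, as did Cry1 and Dbp, so their orders were not tested.

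Of the cryptochromes, the partners of the Period proteins, Cry2 was measured at 96.3 and 140 CPM in astrocytes, 72.1 and 34.1 in tanycytes, 42.9 and 32.3 in oligodendrocytes, 24.1 and 29.3 in neurons and 19.6 and 20.4 in precursors. Astrocytes stood above every other class in both libraries, and none of the tested neighbours differed by the adjusted test. Cry1 was low throughout, at 21.4 and 16.1 CPM in neurons, 12.04 and 33.6 in astrocytes and 10.7 and 4.62 in oligodendrocytes, and no glial class held more than 6 of its UMIs in a library.

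The REV-ERB gene Nr1d1 was measured at 64.2 and 72.8 CPM in astrocytes, 26.2 and 61.1 in precursors, 36.0 and 34.1 in tanycytes, 8.49 and 7.45 in neurons and 7.16 and 4.62 in oligodendrocytes. The libraries of neurons and oligodendrocytes lay below those of the other 3 classes without overlap. These values rest on 2 and 1 UMIs in oligodendrocytes, 4 and 2 in tanycytes and 4 and 6 in precursors. None of the tested neighbours in the order of Nr1d1 differed (tanycytes over neurons 1.82 ± 0.85, edgeR, adjusted p = 0.0797). Its relative Nr1d2 ranged less, from 145 and 224 CPM in astrocytes to 84.9 and 101 in neurons, with 118 and 163 in precursors, 108 and 136 in tanycytes and 85.9 and 143 in oligodendrocytes. Library B was the higher one in each class, and neurons and oligodendrocytes overlapped. In microglia Nr1d2 stood at 26.2 and 30.7 CPM, a single UMI in each library, and neurons lay above them by 2.42 ± 0.81 on the log2 scale (adjusted p = 0.00836, where 42.6% of genes differed). The CPM of neurons and microglia lay less far apart in both libraries than this fitted size.

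Dbp was measured at 24.1 and 84.0 CPM in astrocytes, 9.01 and 34.1 in tanycytes, 7.16 and 18.5 in oligodendrocytes, 13.1 and 10.2 in precursors and 6.82 and 12.5 in neurons. Astrocytes lay above neurons in both libraries, and precursors overlapped neurons. Across the members, 4 of the 35 tested pairs of neighbours in the order of classes differed. In the pairs of classes of those 4 calls, 19.4% to 54.9% of 6241 genes differed. Neighbours in a gene's order are close by construction, so the count cannot be read against these shares. In microglia Per2, Cry2, Nr1d1 and Dbp had no UMI, where 3 counts would have given 78.7 and 92.1 CPM, more than any other class held of these genes except Cry2 in astrocytes.

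Neurons were next set against glia. Arntl was higher in neurons under every way of combining glia, and Per3 was lower. The planned contrast averaged the 5 glial classes on the log scale and tested 7 members. It called Arntl higher by 1.13 ± 0.28 SE (adjusted p = 0.000206) and Per3 lower (log2 difference -0.41 ± 0.18, adjusted p = 0.0420), 2 members where 49.4% of 6241 genes were called (34.9% higher, 14.5% lower). The median was 0.35 over the members and 0.25 over all genes, and the call of Per3 held in 8 of 13 alternatives, with adjusted p up to 0.863 (0.273 without the library term). This average gives microglia, where several members were at 0, the weight of any other class, so 2 further forms were added after the data were seen.

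With all glial nuclei summed, 10 members could be tested and 7 were called, where 52.5% of 13624 genes were (27.1% higher and 25.4% lower in neurons). Arntl stood at 37.3 and 29.1 CPM in summed glia, below both neuronal values (neurons higher by 0.89 ± 0.22, adjusted p = 0.000131). Nr1d1 stood at 31.3 and 37.6 CPM in summed glia (log2 difference -1.95 ± 0.32, adjusted p = 3.08e-09) and Per3 at 414 and 239 (-0.95 ± 0.11, adjusted p = 5.74e-16). For both genes every glial value lay above every neuronal one.

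Per1 stood at 30.1 and 25.7 CPM in summed glia (log2 difference -1.47, adjusted p = 2.03e-05) and Dbp at 13.2 and 37.6 (-1.22, adjusted p = 0.00109). Cry2 stood at 56.6 and 61.6 CPM (-1.05, adjusted p = 6.10e-06) and Nr1d2 at 110 and 164 (-0.42, adjusted p = 0.00811). None of these 4 genes overlapped neurons, although for Dbp the gap lay only between 12.5 and 13.2 CPM. Clock (0.32, adjusted p = 0.0565), Per2 (0.03, adjusted p = 0.936) and Cry1 (0.35) did not pass, and the median was -0.69 over the members and 0.05 over all genes. Without microglia 5 of 7 members were called, Arntl higher and Per3, Cry2, Nr1d1 and Nr1d2 lower, with a background of 54.1% (32.3% higher, 21.9% lower). The number of members lower in neurons thus moved from 1 to 4 or 6 with the way glia were combined.

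**Figure D2:**
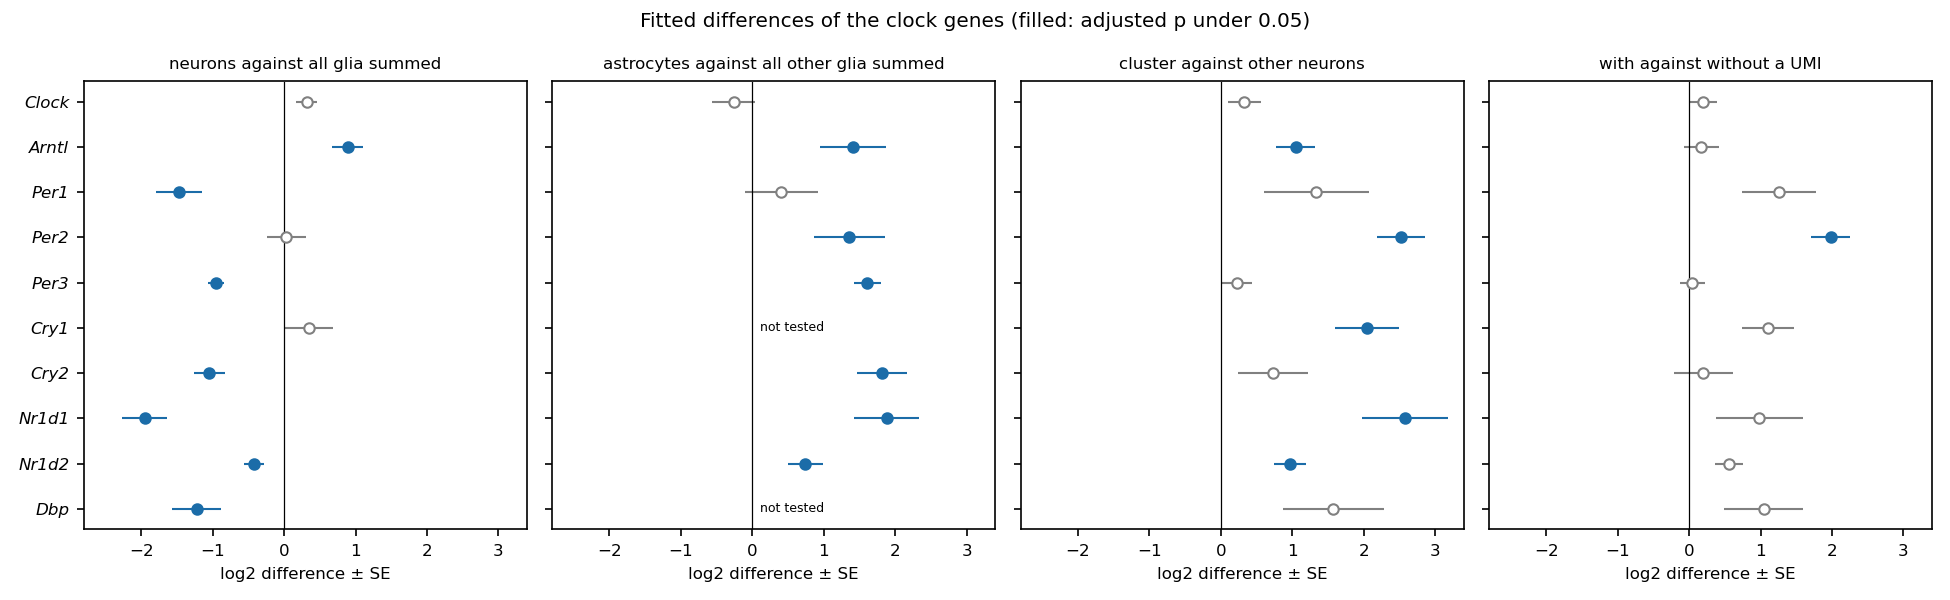
Log2 differences ± SE of the clock genes in 4 comparisons: neurons against all glia summed, astrocytes against all other glia summed, the Vipr2/Prok2-led cluster against other neurons, and neurons with against without a UMI of Vip, Vipr2 or Prok2. Filled points had an adjusted p under 0.05. Nr1d1 lies at -1.95 in the first comparison and at 1.88 in the second, and Per2 lies at 2.52 in the third and 1.98 in the last.

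Within glia, most members were higher in astrocytes. Against the average of the other glial classes, 6 of 7 members tested were higher and none lower, where 26.0% of genes were called and 20.4% were higher. These were Arntl, Per2, Per3, Cry2, Nr1d1 and Nr1d2, while Clock did not pass. Per3 was higher by 1.92 ± 0.19 on the log2 scale (adjusted p = 1.31e-22), Arntl by 1.42 ± 0.48 (adjusted p = 0.0150) and Nr1d2 by 1.32 ± 0.32 (adjusted p = 0.000210). The fitted sizes of Per2 (3.13), Cry2 (3.83) and Nr1d1 (3.67) rest partly on microglia at 0 UMIs and are no bounds, so sizes are also given against all other glia summed, a form added after the data were seen. It called the same 6, of 8 tested, where 18.8% of 6160 genes were higher, 20.5% lower and 39.2% called in either direction, with a median of 1.38 over the members and -0.06 over all genes.

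In that summed form Per3 was higher by 1.61 ± 0.19 on the log2 scale (adjusted p = 6.86e-16), Cry2 by 1.81 ± 0.35 (adjusted p = 1.53e-06) and Nr1d1 by 1.88 ± 0.46 (adjusted p = 0.000167). Arntl was higher by 1.41 ± 0.46 (adjusted p = 0.00708), Per2 by 1.35 ± 0.50 (adjusted p = 0.0182) and Nr1d2 by 0.74 ± 0.25 (adjusted p = 0.00794). Clock (-0.26, adjusted p = 0.559) and Per1 did not pass. In the planned form, the call of Per2 was lost without microglia (1.27, adjusted p = 0.0748) and that of Arntl without the library term (1.43, adjusted p = 0.0674). Directly against neurons, astrocytes were higher in Per3, Cry2, Nr1d1 and Nr1d2, where 50.8% of genes differed, while Arntl differed by -0.01.

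Among the other glial classes, the calls rested mostly on Per3. Oligodendrocytes were lower in Per3 than the average of the other glia (log2 difference -1.12 ± 0.29, adjusted p = 0.000640), the 1 member called there of 7 tested, against 29.9% of genes called and 9.68% lower. Precursors (0.67, adjusted p = 0.0400, background 24.6%, 20.7% higher) and tanycytes (0.80, adjusted p = 0.0158, background 18.7%, 14.6% higher) were higher in Per3, but the call held in 3 of 11 alternatives for precursors and 7 of 11 for tanycytes. Without microglia these differences were 0.03 and 0.31 on the log2 scale. Microglia were lower in Per3 (-2.27 ± 0.47, adjusted p = 1.55e-05) and Nr1d2 (-2.91 ± 0.77, adjusted p = 0.00111), and Cry2 was called lower at 0 UMIs, where 27.7% of genes were called and 16% lower.

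Suprachiasmatic neurons were sought in a cluster of 175 neurons (107 and 68) whose 10 leading genes included Vipr2, Prok2 and Syt10. It was chosen as the cluster with most of Vip, Vipr2 and Prok2 among its leading genes, the same genes as in the split by UMIs below. Vipr2, Prok2 and Syt10 are fixed suprachiasmatic markers, so it is called suprachiasmatic-like. Vip stood at 143 and 131 CPM in the cluster and at 0.528 and 0.744 in the other neurons. The 14 suprachiasmatic markers, which include the 3 genes that chose the cluster, summed to 4803 and 4321 CPM against 1093 and 1070. Zfhx3 alone gave 2967 and 2342 CPM of these, against 938 and 886, so it made up most of each sum. The astrocyte markers summed to 302 and 240 CPM in the cluster, below the 569 and 626 of other neurons, with Aqp4 and Fgfr3 at 0 in both libraries. Oligodendrocyte markers summed to 465 and 356 CPM against 112 and 137, and tanycyte markers to 2271 and 2311 against 871 and 774, with Rax, Crym, Dio2, Gpr50, Slc17a8 and Frzb at 0 in both libraries of the cluster. Their part in the results was not tested. The cluster's nuclei were shallower, with median UMIs of 1616 and 1692 against 2275 and 2657.5.

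Per2 was measured there at 194 and 77.3 CPM, from 38 and 10 UMIs, against 26.0 and 18.8 CPM in the other neurons. Both libraries of the cluster lay above both of the others, and the log2 difference was 2.52 ± 0.33 SE (adjusted p = 2.03e-12). Cry1 stood at 97.2 and 54.1 CPM against 19.4 and 14.9, again without overlap (2.05 ± 0.45, adjusted p = 0.000117). Nr1d1 stood at 56.3 and 30.9 CPM against 7.26 and 6.70, from 11 and 4 UMIs in the cluster (2.58 ± 0.60, adjusted p = 0.000397). Every cluster value of these 3 genes exceeded every value outside.

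Arntl was measured at 102 and 162 CPM against 49.6 and 65.7 (log2 difference 1.05 ± 0.28, adjusted p = 0.00276). Nr1d2 stood at 210 and 162 CPM against 81.7 and 99.4 (0.97 ± 0.23, adjusted p = 0.000423). Both genes were higher in the cluster in each library, and both lost the call without the library term (adjusted p = 0.0888 and 0.0873). In all, 5 of 10 members were higher and none lower, where 3.53% of 12482 genes were higher, 5.71% lower and 9.24% called in either direction. The median difference was 1.19 over the members and -0.15 over all genes.

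The other 5 members did not pass. Dbp stood at 25.6 and 30.9 CPM against 6.34 and 11.9 (1.57 ± 0.71, adjusted p = 0.180) and Per1 at 25.6 and 23.2 against 7.66 and 10.9 (1.34 ± 0.74, adjusted p = 0.322), both without overlap between the groups. Cry2 stood at 25.6 and 77.3 CPM against 24.0 and 27.8. Clock (128 and 216 against 104 and 143) and Per3 (210 and 193 against 207 and 102) overlapped the other neurons, with log2 differences of 0.33 ± 0.23 and 0.22 ± 0.21. The fit rests on 4 sums with 1 residual degree of freedom, so its p-values rest largely on a spread shared over all genes. In simulated counts it recovered 33% of genes changed by 1 on the log2 scale and 80% of those changed by 2. Only genes at or above the median total count were changed there, so the shares do not cover sparser genes.

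**Figure D3:**
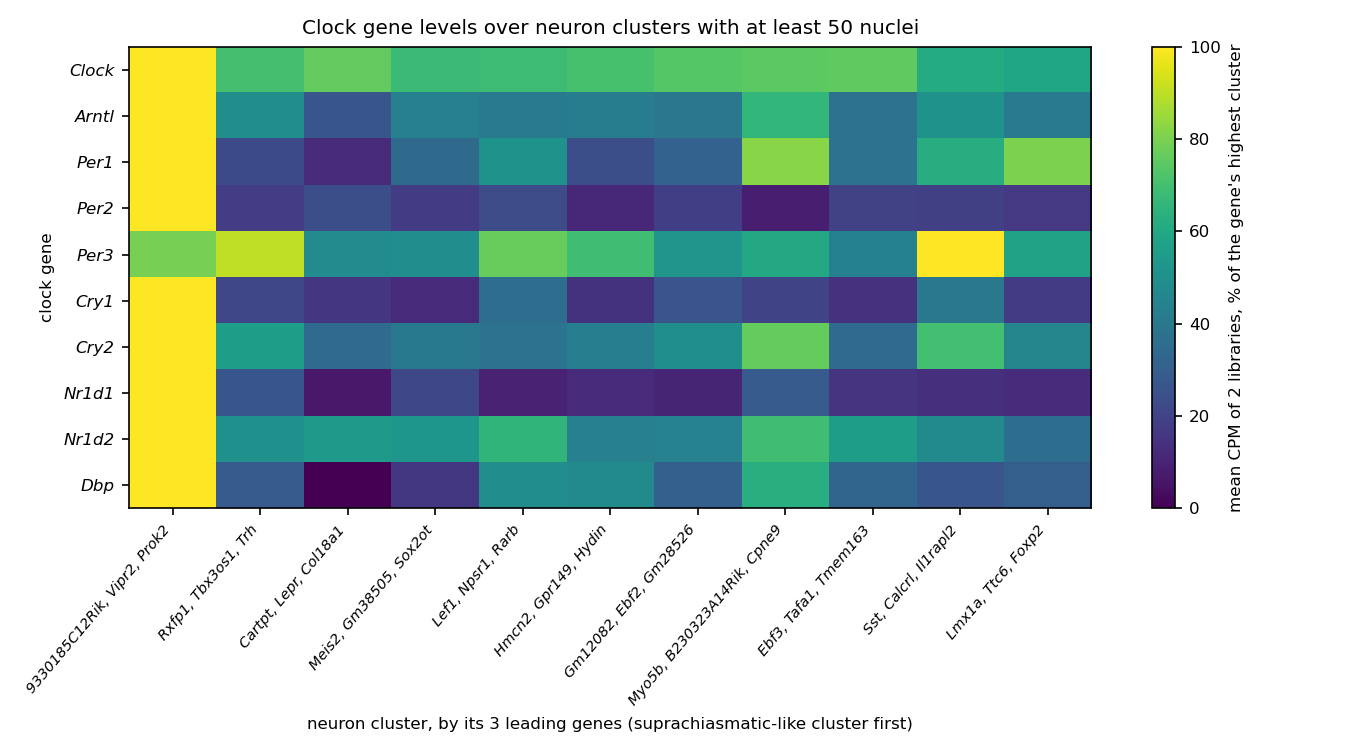
Mean level of each clock gene in the 11 neuron clusters with at least 50 nuclei, as a percent of the gene's highest cluster. By this mean the suprachiasmatic-like cluster is highest for 9 of the 10 genes, though not in both libraries for Clock, Per1 and Cry2. Per3 is highest in the cluster led by Sst and Calcrl.

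Among the 11 neuron clusters with at least 50 nuclei, the suprachiasmatic-like cluster had the highest mean for every member but Per3. For Clock, Cry2 and Per1 it was not highest in both libraries. In library A its Clock (128 CPM) lay below the Cartpt-led cluster (155) and its Cry2 (25.6) below the Myo5b-led one (42.0). In library B its Per1 (23.2) lay below the Lmx1a-led cluster (25.4). The share of all genes highest in the suprachiasmatic-like cluster is not given here. Its Per2 mean of 136 ± 82.8 CPM (SD, n = 2) stood beside 11.7 to 32.6 CPM in the other clusters, Cry1 at 75.6 ± 30.5 beside 8.91 to 30.2, and Nr1d1 at 43.6 ± 17.9 beside 2.98 to 12.5. Per3 was highest in the cluster led by Sst and Calcrl, at 253 ± 53.2 CPM, and the suprachiasmatic-like cluster ranked 3 with 201 ± 11.6. When the 5 smaller neuron clusters were counted too, Arntl, Per2, Cry1, Nr1d1 and Dbp still had their highest mean in it, and Clock, Per1, Cry2 and Nr1d2 ranked 2, each below a cluster of 17 or 28 nuclei.

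Splitting neurons by transcripts instead of clusters gave a narrower result. A UMI of Vip, Vipr2 or Prok2 was found in 219 neurons (142 and 77): Vip in 22, Vipr2 in 157 and Prok2 in 61. Vipr2 was found in 3.397% and 3.89% of neurons and in 0.204% and 1.21% of glial nuclei, which were shallower. Among glia its share was highest in precursors, at 1.49% and 6.94%, from 2 and 5 UMIs. Its level there was 13.1 and 50.9 CPM, beside 18.5 and 22.8 CPM in neurons. Of the 219 neurons, 99 lay in the suprachiasmatic-like cluster, which is 45.2% of the neurons with a UMI and 56.6% of the cluster.

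Per2 was measured at 108 and 69.9 CPM in neurons with a UMI and at 26.3 and 18.2 in neurons without. The groups did not overlap, and the log2 difference was 1.98 ± 0.27 SE (adjusted p = 0.00105). It was the only member called, where 1.70% of 12564 genes were called and 1.03% were higher. Cry1, at 43.2 and 35.0 CPM against 20.3 and 15.1, did not overlap either but missed the threshold (1.10 ± 0.37, adjusted p = 0.231). With neurons matched in depth both were called (Per2 2.07, Cry1 1.37 with adjusted p = 0.0297), where 3.69% of genes were (2.0% higher). Nr1d2 (140 and 120 CPM against 82.2 and 100) and Arntl (56.7 and 79.9 against 50.7 and 68.2) did not pass.

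**Figure D4:**
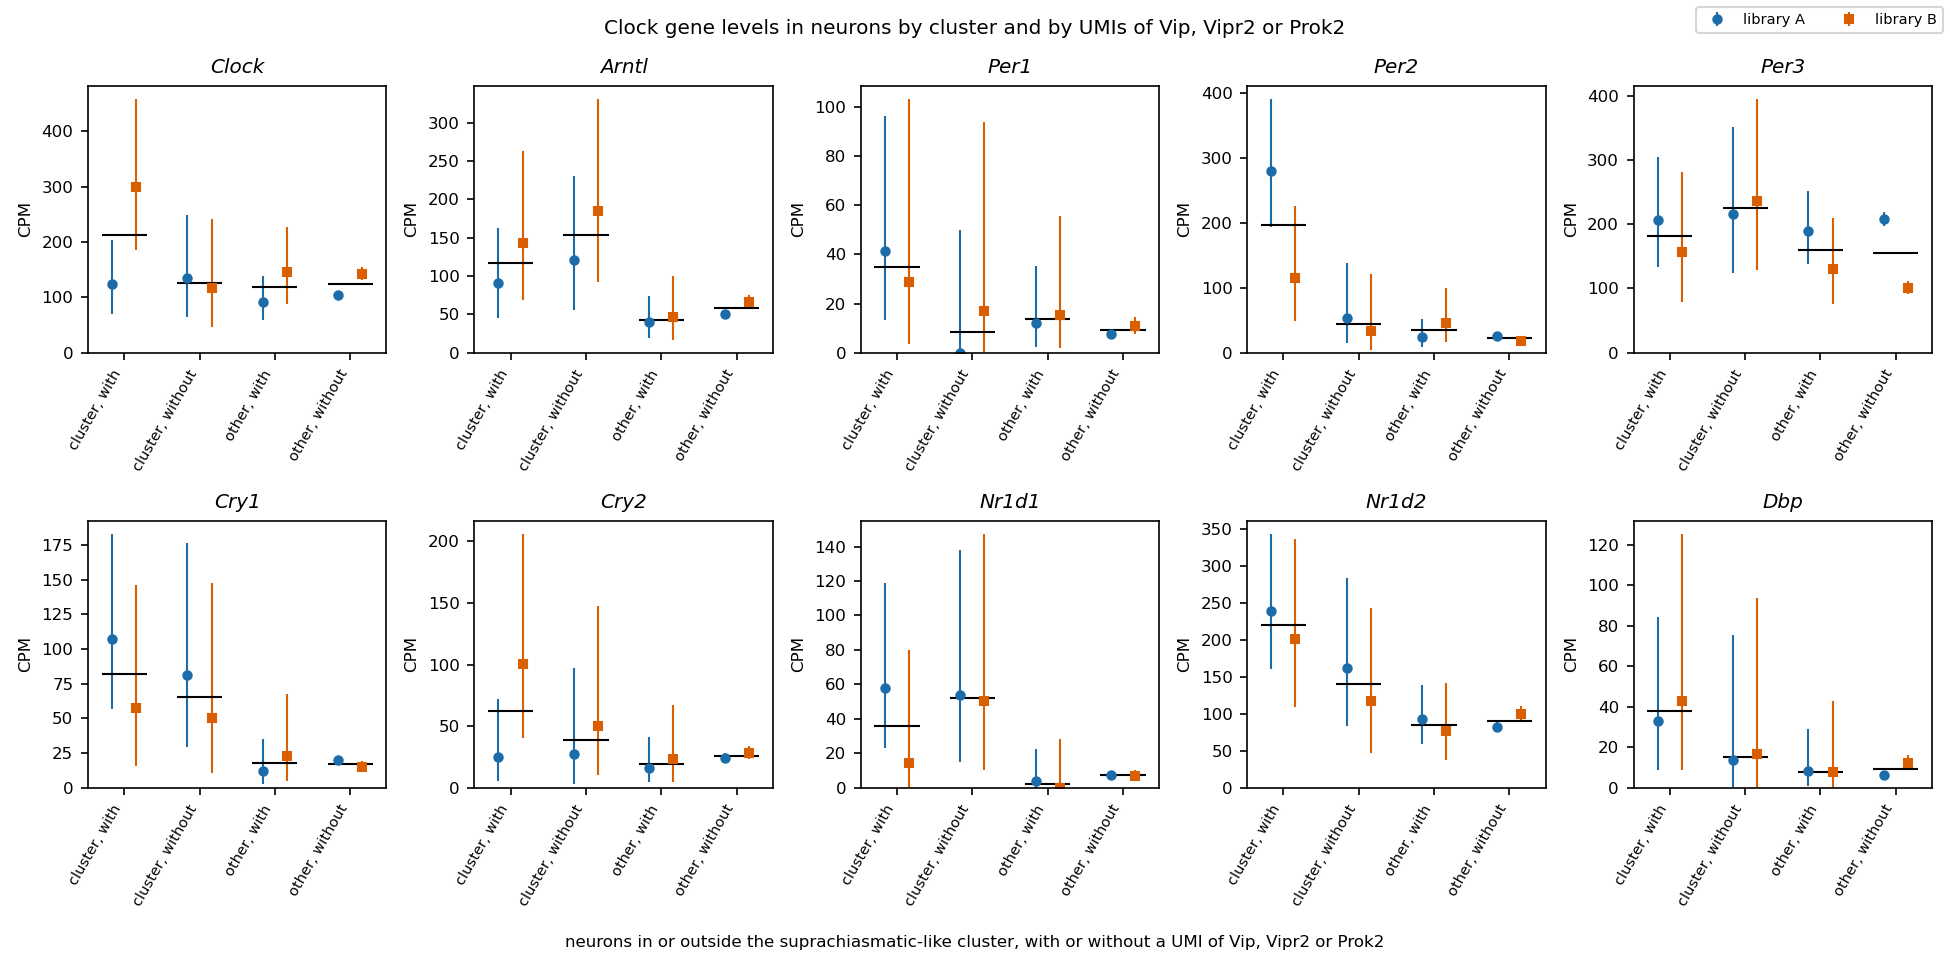
Levels of the 10 clock genes in CPM in libraries A and B, with exact 95% Poisson intervals. Neurons of the suprachiasmatic-like cluster and other neurons are each divided into those with and without a UMI of Vip, Vipr2 or Prok2. Per2 stands highest in cluster neurons with a UMI in both libraries.

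Crossing both splits, Per2 stood at 280 and 114 CPM in cluster neurons with a UMI, 54.0 and 33.6 in cluster neurons without, 24.1 and 46.1 in other neurons with a UMI and 26.1 and 17.9 in the rest. Only the first of these 4 groups lay clear of the others in both libraries. Outside the cluster, neurons with a UMI differed from those without in 0 of 12136 genes by edgeR's test (675 at an unadjusted p under 0.05; 0% called), members included, with Per2 at 0.43 (adjusted p = 0.973). Among neurons without a UMI, the cluster differed from the rest in none of the 10 members (3 at an unadjusted p under 0.05), where 4.66% of genes were called. The log2 differences there were 2.55 for Nr1d1 (adjusted p = 0.149), 1.63 for Cry1 (0.287), 1.08 for Arntl (0.116) and 0.68 for Per2 (0.825).

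A list of 24 other clock genes was read in the same fits. In the suprachiasmatic-like cluster 5 of 22 tested were higher and none lower, where 3.53% of all genes were higher and 5.71% lower. The 5 were Rorb, Hlf, Rora, Fbxl21 and Tef. Rorb, an activator at ROR elements, stood at 2291 and 1306 CPM against 243 and 181 (log2 difference 2.95, adjusted p = 4.55e-87), and Hlf, a relative of DBP, at 194 and 124 against 18.1 and 23.6 (2.90, adjusted p = 6.14e-17). In neurons with a UMI 3 of 22 were higher, among them Rorb (1.97) and Hlf (2.04), where 1.03% of all genes were. Rorb is among the 10 leading genes of the cluster, although it was kept out of the clustering.

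In astrocytes 9 of 15 list genes were higher than the average of other glia and none lower, where 20.4% of all genes were higher. Rorb (4.53, adjusted p = 1.66e-98) and Rora (3.18, adjusted p = 4.43e-98) had the smallest p. Rora stood at 3131 and 3836 CPM in astrocytes, 2226 and 2505 in tanycytes, 2069 and 2403 in precursors, 183 and 83.1 in oligodendrocytes and 105 and 0 in microglia. Rorb stood at 1321 and 1013 CPM in astrocytes, 568 and 290 in tanycytes, 177 and 173 in precursors, 10.7 and 0 in oligodendrocytes and 52.4 and 0 in microglia. The fitted sizes of both genes thus rest partly on classes at or near 0 and are no bounds. In oligodendrocytes Rorb (-4.93) and Rora (-2.57) were lower and Btrc, part of the ligase that marks PER proteins for breakdown, was higher (0.80). Neurons against the average of glia showed 5 of 15 higher and 3 lower, near the 34.9% and 14.5% of all genes. Btrc (1.01) was among the higher and Bhlhe41 (-0.65) among the lower genes. Rorb was called higher in neurons there (1.43), but with all glial nuclei summed it stood at 511 and 368 CPM, above the 294 and 216 of neurons. In the summed form 5 of 22 were higher and 9 lower, where 27.1% and 25.4% of all genes were. Of 10 activity-regulated genes, 5 were tested in the cluster and 1 was higher, and of 7 glucocorticoid-responsive genes, Per1 among them, 5 were tested and none was called.

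**Figure D5:**
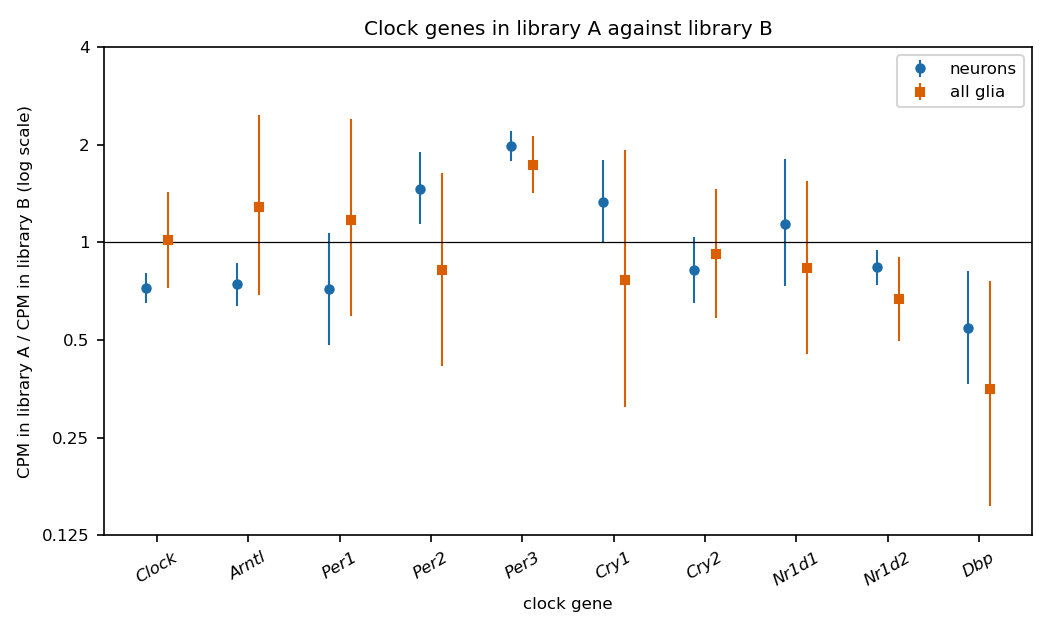
Ratio of the level in library A to that in library B for each clock gene, in neurons and in all glia, on a log axis with exact 95% intervals for counting error. Per3 lies at 1.97 in neurons and 1.73 in glia, and Dbp lies at 0.546 and 0.352.

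Some members stood higher in the same library in every class, though most intervals within a class included no difference. Per3 was higher in library A in 6 of 6 classes, with a ratio of 1.97 (exact 95% interval 1.78 to 2.20) in neurons and 1.73 (1.42 to 2.12) in glia. Nr1d2 was higher in library B in 6 of 6 classes, with a ratio of 0.838 (0.740 to 0.949) in neurons and 0.668 (0.496 to 0.899) in glia. In microglia this direction rests on 1 Nr1d2 UMI in each library. The interval lay clear of 1 in 2 of 6 classes for Per3 and in 1 of 6 for Nr1d2. Dbp was higher in library B in 4 of 6 classes and in library A in 1, with ratios of 0.546 (0.365 to 0.816) in neurons and 0.352 (0.154 to 0.758) in glia. These 3 genes kept the direction in neurons and glia alike.

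Per2 in neurons had a ratio of 1.46 (1.14 to 1.90), Clock 0.723 (0.650 to 0.805) and Arntl 0.742 (0.635 to 0.866). Over the 12247 genes with at least 50 UMIs in neurons, the median log2 ratio of A to B was -0.15. Of these genes, 4.05% lay at least as far from no difference as Per3 and 9.67% as far as Dbp. The share was 26.2% for Per2, 32.6% for Clock, 37.0% for Arntl and 59.2% for Nr1d2, so the ratios of these 4 members in neurons were common ones. The neuron markers also summed to different levels in the libraries, 27226 and 16669 CPM. With 1 library of each kind there is no test and the intervals cover counting error only.

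Levels of the members were compared over 16 groups, the 5 glial classes and 11 neuron clusters, which all come from the same 2 libraries and differ in depth. On the scale of log2(CPM + 10), Cry2 followed Dbp (Pearson r = 0.90) and Nr1d1 followed Dbp (0.82) and Per3 (0.82), whereas Clock ran against Per3 (-0.58). Cry2, Dbp and Nr1d1 were all highest in astrocytes and had no UMI in microglia, which count in r like any other group. Clock was lowest in astrocytes, where Per3 was highest. How far r rests on astrocytes and microglia was not tested. Among 7507 genes, those most like Per2 were Ocrl (0.96), Trappc9 (0.91) and Epb41l5 (0.90), and those most like Per3 were Shroom4 (0.91), Znrf3 (0.87) and Pigs (0.87). Cry1 was most like Crem (0.80), Syt10 (0.75) and 9330185C12Rik (0.74), of which the last 2 are leading genes of the suprachiasmatic-like cluster.

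The remaining lists were Ero1lb (0.85), Usp15 and Pkib for Clock, Iqsec3 (0.88), Castor2 and Tspan33 for Arntl, and Slc20a2 (0.81), Rpa1 and Vamp2 for Per1. Cry2 was most like Atp2a2 (0.92), Prnp and Cc2d2a, Nr1d1 like Spry2 (0.89), Mtss2 and Spon1, Nr1d2 like Kiz (0.86), Ift57 and Ino80dos, and Dbp like Cry2 (0.90), Acsl3 and Ptch1. Each r is over the 16 groups and describes these libraries.

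Some members share their locus with another gene in the GENCODE M21 annotation, and the sources name no rule for strand or introns in the counting. The whole body of Per3 lies within Camta1 on the same strand, with no exon bases shared. Camta1 stood at 357 and 554 CPM in neurons and 153 and 151 in astrocytes, the reverse order of Per3, and their r over the 16 groups was -0.23. Opposite-strand neighbours share 8.55% of the exon bases of Nr1d1 (Thra), 18.0% of those of Dbp (Sphk2) and 4.67% of those of Cry2 (D930015M05Rik), with r of 0.34, 0.13 and 0.76. Over the whole gene body, introns included, these neighbours cover 14.5%, 14.4% and 77.0%. The values of these genes are uncertain for that reason.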

How the data were processed

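Counts are UMIs per gene and barcode as the authors deposited them, from nuclear RNA by Chromium 3' chemistry (version 3.1), per the labels' protocols. The submitters' processing notes list Cell Ranger 5.0.1 and a human build, but the files hold mouse identifiers; which mouse build was used is not stated. Total counts were 8779880 (library A) and 4924563 (library B). Every barcode had at least 300 genes and under 5% mitochondrial counts. Scrublet marked 30 nuclei (0.487%), which were left out, and did not work as a doublet filter, so doublets remain. Nuclei were clustered in scanpy 1.11.5 (3000 variable genes, 40 components, 20 neighbours, leiden resolution 1) without the 34 clock genes. Names such as neuron mean neuron-like: 3 class markers among 10 leading genes, or 6 of 12 neuron markers over 2-fold.

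Counts were summed per library and class and fitted with edgeR 4.0.16 (quasi-likelihood, TMM, low-count filter, class plus library) in R 4.3.3, with Benjamini-Hochberg adjustment over all genes and a threshold of 0.05. Vip, Vipr2 and Prok2 were left out of the splits they define. The library term pairs sums of 1 nuclei preparation. P-values set the differences between groups against how far such differences vary between the 2 libraries, beside counting error, and this spread may be technical. The fits had 5 (classes) or 1 (cluster, UMI split) residual degrees of freedom and shared the spread between genes. It thus rests largely on all genes together, and a gene's own variation between libraries enters little. A shift shared by all groups of a library does not enter the spread. DESeq2 1.42.0, other size factors, filters, clusterings and depths were alternatives. All members are named; list genes are the 2 smallest p per direction, except 1 that is not reported here, and Fbxl21, Rora and Tef in the cluster were named after their values were seen. Members and lists were chosen with earlier results of these data known. In simulated data the fit recovered 97% of genes changed by 1 between neurons and glia. Changes were planted only in genes at or above the median total count, with classes otherwise alike and 1 spread common to all genes. Recovery of sparser genes was not simulated.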

Additional observations from a re-analysis of the deposited data

How the results depend on the processing

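Of 809 values recomputed under alternatives, 699 kept direction and side of the threshold, 39 changed sign, 30 lost and 10 gained a call, and 31 moved. The count for neurons against glia (2 of 7 members) became 1 without the replicate block or without the 5% deepest nuclei, 0 of 3 with nuclei thinned to 500 UMIs, 5 without microglia and 7 of 10 with glia summed. Thinning left 1 of 6 calls in astrocytes, 3 of 6 in the other glia and 2 of 4 neighbours in the order of classes, where the fit without the replicate block also gave 2. The UMI split (1 call) gave 2 with the transplanted-labelled deposit, with thinning and with matched depth, and 0 without the cluster or with Vip alone. The cluster (5 calls) gave 3 without the replicate block and 0 among neurons without a UMI. Thinning also lowers the number of genes tested. The causes of the other changes were not tested.

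Signs changed in neurons against glia for Cry2 (-0.092 with DESeq2, -0.83 without microglia, -1.05 summed), Nr1d2 (-0.51 without microglia, -0.42 summed, -0.0082 in the transplanted-labelled deposit) and Nr1d1 (0.10 without the low-count filter, 0.025 in that deposit, 0.00010 without the deepest nuclei). In glia they changed for Clock with thinning (0.069 in astrocytes, 0.10 in microglia), for Arntl (0.42), Per2 (0.74) and Nr1d1 (0.19) in oligodendrocytes joined by the mixed cluster, and for Arntl in microglia (0.14 with DESeq2, 0.082 with RLE factors). Without microglia they changed for Cry2 (-0.27) and Nr1d2 (-0.21) in oligodendrocytes, Nr1d2 in tanycytes (-0.47) and Cry2 in precursors (-1.66, called), which DESeq2 put at -0.56. In the UMI split outside the cluster the values were -0.13 for Clock, -0.44 for Arntl, -0.034 for Per3, -0.21 for Cry1, -0.51 for Cry2, -1.48 for Nr1d1, -0.063 for Nr1d2 and -0.11 for Dbp. With Vip alone they were -1.55 for Clock, -0.26 for Per3, -0.92 for Cry2 and -1.71 for Nr1d2, with Prok2 alone -0.50 for Arntl and -0.19 for Per3, with at least 2 UMIs -0.0036 for Per3, and in the transplanted-labelled deposit -0.0095 for Arntl. In the cluster among neurons without a UMI Clock gave -0.24 and Per1 -0.56. Apart from Cry2 and Nr1d2 without microglia or summed, and Cry2 in precursors, none of these was called in the alternative. Single libraries gave values without a test: Per2 1.89 and 2.73 in the cluster. Microglia (38137 and 32587 UMIs in all) and tanycytes (110960 and 58694) rest on fewer UMIs than the other classes.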
